A study of Mus musculus with 6 samples.

Results

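The endoplasmic reticulum (ER) proteostasis genes described here are 47 genes that act with the transcription factors XBP1 and ATF6 to bring secretory proteins into the ER, fold them, move them on or destroy them. They were chosen by function from a fixed list of symbols, and all 47 were found by exact symbol among 35976 genes in a table of liver RNA counts. Of the 47, 46 passed the filter on low counts and were tested. Poly(A) RNA was sequenced from livers of male mice of genotype IRE1PKO (3 libraries) and of genotype IRE1fl (3 libraries), with HFD, read here as high-fat diet, given as the treatment of both groups. All livers were taken after 16 hours without food and 4 hours of refeeding. Both genotype names refer to IRE1, the ER stress sensor encoded by Ern1. The labels do not spell out PKO, name no Cre driver and give no age, and the series title is about signalling from pituitary to liver in obesity. Whether each library is its own animal is not stated, so p-values here reflect spread among 6 libraries, and that spread may be technical.

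When unfolded proteins build up in the ER, IRE1 removes a short intron from Xbp1 mRNA so that an active XBP1 protein is made, while ATF6 travels to the Golgi and is cut there to release its own active fragment. Both factors then switch on genes for protein entry, chaperones, disulfide isomerases and ER-associated degradation, the route by which misfolded proteins are pulled out and sent to the proteasome. Hepatocytes secrete most plasma proteins and rely heavily on this machinery. Gene counts do not separate spliced from unspliced Xbp1, so neither IRE1's splicing nor ATF6 cleavage was measured here.

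Libraries held 35776219 to 39277435 counts, and the 47 genes took 0.786% to 0.869% of them. All 8 hepatocyte markers were counted in every library, with a summed level of 82220 to 99620 CPM (the usual count scaled to library size) in IRE1PKO and 92260 to 108600 CPM in IRE1fl, and 2 of them called lower. Summed stellate cell markers stood at 417 to 449 CPM in IRE1PKO and 216 to 252 CPM in IRE1fl, with 7 of 8 called higher, and endothelial markers at 328 to 418 CPM in IRE1PKO and 274 to 299.7 CPM in IRE1fl, with 3 of 8 called higher. Macrophage markers overlapped between the groups, at 353 to 495 CPM in IRE1PKO and 290.1 to 407 CPM in IRE1fl, with 1 called higher and 1 lower, and summed cholangiocyte markers were at 40.9 to 52.7 CPM in IRE1PKO and 35.4 to 40.1 CPM in IRE1fl. The cholangiocyte sum was mostly Spp1, called higher (mean 40.8 CPM in IRE1PKO and 23.3 CPM in IRE1fl), while Sox9 was called lower (5.02 CPM in IRE1PKO and 12.2 CPM in IRE1fl). These other cells also use the ER genes, and the part of such cells in the results below was not tested. In bulk tissue, fewer cells of a type cannot be told apart from less RNA per cell. Ern1 itself (chromosome 11, 106397620 to 106487796) had 45.7, 36.6 and 44.2 CPM in the IRE1PKO livers, against 61.2, 49.3 and 60.8 CPM in the IRE1fl livers. Its log2 fold change was -0.44 (SE 0.11, edgeR adjusted p = 0.0357), and the call was lost without any 1 library other than IRE1fl 02 (adjusted p up to 0.137), with limma-voom (0.0512) and when libraries were scaled by their totals alone (0.0660). The labels do not say which cells carry a deletion or which exon, so gene counts in whole liver are a limited check of them.

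Many members carry, near their transcription start, the sequence elements that ATF6 and XBP1 are known to bind. Windows of 250 bases before to 50 bases after annotated starts (RefSeq, GRCm38.p6) were available for 36 members. None was available for Atf6, Srp19, Sec61a1, Ssr2, Spcs3, Ostc, Hyou1, Sil1, Hspa13, Manf and Derl1, which have no motif result. The ER stress response element (ERSE, CCAAT and CCACG separated by 9 bases, either strand) was matched exactly in 9 of these 36 genes, or 25.0%, and in 19 of 11152 tested genes with a window, or 0.170%, these members included. Its second form (ERSE-II, ATTGG and CCACG separated by 1 base) was in 2 of the 36 members and 8 of the 11152 genes. The unfolded protein response element core TGACGTGG was in 4 members (11.1%) and in 114 of the 11152 genes (1.02%). The shorter CCACGT, which that core contains on its other strand, was in 15 members (41.7%) and in 1409 of the 11152 genes (12.6%). The cAMP response element TGACGTCA was in none of the members and in 368 of the 11152 genes (3.30%). A match describes the letters only, and since the members were chosen as targets of these factors, their share is no independent finding.

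The 6 windows printed here belong to members named in the results, and the called gene Hspa13 had no window to print. Hspa5 is the standard readout of ER stress (chr2:34771840-34772139, plus strand), and Hsp90b1 has a pair of ERSE matches (chr10:86705395-86705694, minus strand). Creld2 and Derl3 had the lowest fold change in folding and in degradation (chr15:88819396-88819695 and chr10:75893148-75893447, plus strand). Herpud1 has an ERSE-II (chr8:94386179-94386478, plus strand), and Dnajb9 was higher in IRE1PKO (chr12:44210019-44210318, minus strand). Each runs 5′ to 3′ along its gene, and capitals mark the matched letters, the spacer of an ERSE being left in lower case.
Hspa5: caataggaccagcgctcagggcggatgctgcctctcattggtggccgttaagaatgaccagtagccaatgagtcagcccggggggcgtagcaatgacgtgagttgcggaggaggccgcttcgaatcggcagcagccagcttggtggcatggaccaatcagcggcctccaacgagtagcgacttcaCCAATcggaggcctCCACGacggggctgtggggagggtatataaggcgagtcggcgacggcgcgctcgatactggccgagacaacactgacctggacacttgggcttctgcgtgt
Hsp90b1: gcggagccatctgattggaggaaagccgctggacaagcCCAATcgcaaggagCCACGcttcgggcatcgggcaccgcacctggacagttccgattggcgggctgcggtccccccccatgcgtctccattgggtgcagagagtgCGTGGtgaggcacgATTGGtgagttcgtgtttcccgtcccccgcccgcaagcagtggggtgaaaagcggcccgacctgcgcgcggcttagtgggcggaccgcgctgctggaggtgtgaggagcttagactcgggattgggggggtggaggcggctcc
Creld2: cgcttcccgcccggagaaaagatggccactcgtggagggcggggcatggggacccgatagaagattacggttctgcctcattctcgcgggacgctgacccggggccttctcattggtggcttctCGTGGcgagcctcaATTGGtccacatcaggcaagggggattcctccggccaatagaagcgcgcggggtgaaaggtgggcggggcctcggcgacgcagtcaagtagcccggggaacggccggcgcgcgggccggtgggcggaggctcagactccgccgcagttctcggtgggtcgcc
Derl3: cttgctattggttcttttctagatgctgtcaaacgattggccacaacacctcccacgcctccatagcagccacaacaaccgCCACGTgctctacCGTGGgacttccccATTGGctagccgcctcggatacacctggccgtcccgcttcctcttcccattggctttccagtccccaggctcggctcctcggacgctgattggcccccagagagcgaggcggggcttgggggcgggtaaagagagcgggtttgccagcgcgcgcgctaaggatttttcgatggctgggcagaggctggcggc
Herpud1: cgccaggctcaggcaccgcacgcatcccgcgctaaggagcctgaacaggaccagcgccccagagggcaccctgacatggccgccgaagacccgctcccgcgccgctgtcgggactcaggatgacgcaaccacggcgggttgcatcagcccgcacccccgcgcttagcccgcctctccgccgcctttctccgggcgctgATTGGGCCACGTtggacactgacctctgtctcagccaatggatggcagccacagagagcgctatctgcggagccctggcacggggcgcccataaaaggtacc
Dnajb9: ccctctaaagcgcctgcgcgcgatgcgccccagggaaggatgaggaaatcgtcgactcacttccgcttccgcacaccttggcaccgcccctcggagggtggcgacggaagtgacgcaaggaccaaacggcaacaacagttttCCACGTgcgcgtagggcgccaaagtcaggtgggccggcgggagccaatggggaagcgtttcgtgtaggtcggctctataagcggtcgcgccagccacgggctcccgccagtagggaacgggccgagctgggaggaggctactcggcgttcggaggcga

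The ERSE matches lay from 212 to 44 bases before the start. In the Dnajb9 window CCACGT was found 108 bases before the start and no ERSE, ERSE-II or TGACGTGG. In the Derl3 window an ERSE 156 bases before the start stood next to CCACGT 169 bases before it. Elements were unevenly placed among the steps, with an ERSE in 7 of 16 folding genes and 2 of 7 degradation genes, and in none of 8 entry genes, by exact match. TGACGTGG was found in Sec24d and Kdelr3 of the traffic genes and in Txndc5 and Txndc11 of the folding genes.

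**Figure D1:**
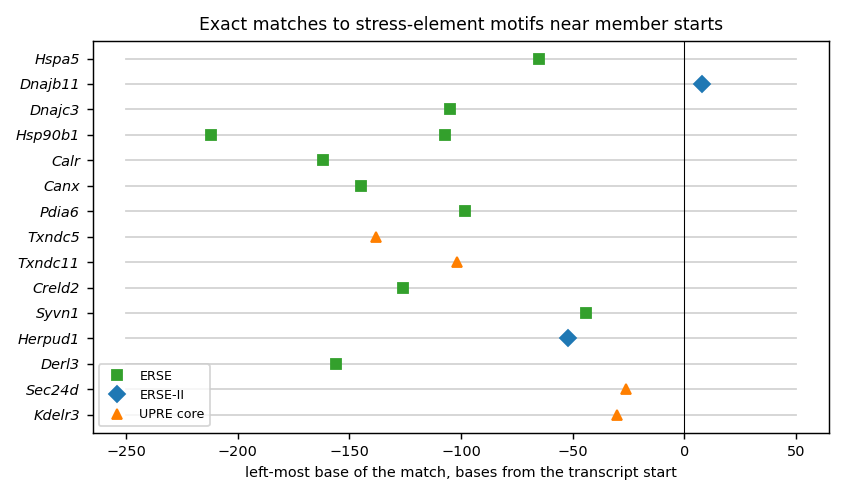
Position of each exact match to ERSE, ERSE-II and the TGACGTGG core, in bases from the transcript start (x axis), for the members that hold one (y axis). The ERSE of Hspa5 lies 65 bases before the start and the 2 of Hsp90b1 lie 212 and 107 bases before it, and the ERSE-II of Dnajb11 begins 8 bases after it.

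Most ER proteostasis genes differed little between IRE1PKO and IRE1fl livers, and 2 of the 46 tested passed the test. Dnajb9 and Hspa13, a BiP co-chaperone and an Hsp70-like protein, rose in IRE1PKO, and no member fell past the threshold. These 2 calls are 4.35% of the 46 tested members, beside 5.68% of all 14954 tested genes called higher, and 0 members were called lower beside 3.86% of all genes. At an unadjusted p under 0.05, edgeR put 4 members higher and 6 lower (8.70% and 13.0%, beside 13.5% and 11.5% of all genes). DESeq2 and limma-voom each called 1 member lower, Derl3. Libraries of the groups did not overlap for 6 members that were higher and 10 that were lower, or 13.0% and 21.7%, beside 16.0% and 15.0% of all genes. These shares rest on few members, and their difference from the background was not tested.

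The median log2 fold change (IRE1PKO over IRE1fl) of the 46 members was -0.07, with 17 above and 29 below 0, against -0.0014 over all tested genes. The 95% interval lay within a 1.5-fold change in either direction for 37 members (80.4%, against 48.6% of all genes) and within 2-fold for 43. Intervals narrow as counts rise, and all genes were not matched to the members by count. Xbp1, Creld2 and Derl3 were the 3 members whose interval reached beyond 2-fold. By step, the median was -0.07 for 13 entry genes, -0.06 for 20 folding genes and -0.17 for 8 degradation genes, and a difference between steps was not tested. With library totals as the only scaling, which moved the median of all genes by 0.0705, the entry and folding medians changed sign to 0.0032 and 0.0068 and the degradation median was -0.11.

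**Figure D2:**
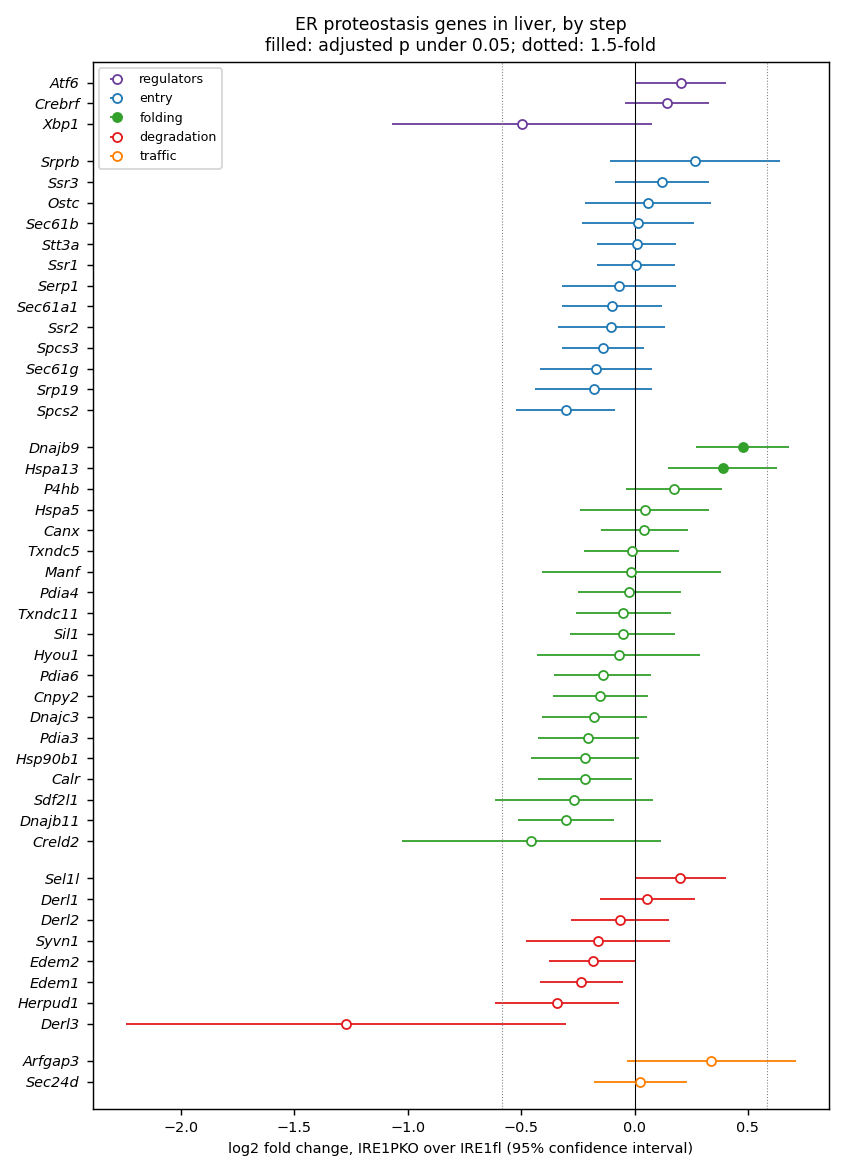
Log2 fold change of each tested member, IRE1PKO over IRE1fl, with its 95% interval (x axis), ordered within its step (y axis). Filled points passed an adjusted p of 0.05, open points did not, and dotted lines mark 1.5-fold. Dnajb9 at 0.48 and Hspa13 at 0.39 are filled, and Derl3 at -1.27 has the lowest value and the widest interval.

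Xbp1 (chromosome 11, 5520641 to 5525993) gave 203, 154 and 259 CPM in the IRE1PKO livers, against 277, 225 and 368 CPM in the IRE1fl livers. The groups overlapped, since IRE1PKO 03 lay above IRE1fl 02. The log2 fold change of -0.50 (SE 0.24, 95% interval -1.07 to 0.08) did not pass (edgeR adjusted p = 0.259), and its interval runs from more than 2-fold lower to slightly higher. It was -0.29 without IRE1fl 03, -0.33 without IRE1PKO 02 and -0.70 without IRE1PKO 03, with no call in any of these. Xbp1 was called only with the replicate number fitted as a block (edgeR adjusted p = 0.00414). No label says that a number marks a pair. Atf6, which encodes the precursor of the other factor, gave 109.6, 91.2 and 102 CPM in the IRE1PKO livers, against 89.0, 86.1 and 87.2 CPM in the IRE1fl livers. Every IRE1PKO library was above every IRE1fl library, yet the difference was small, 0.21 (SE 0.09), and did not pass (adjusted p = 0.183). Crebrf, a negative regulator of the related factor CREB3, likewise had its 3 IRE1PKO libraries (37.4 to 40.7 CPM) above its 3 IRE1fl libraries (33.8 to 36.1 CPM) without passing (0.14, adjusted p = 0.327).

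Entry into the ER begins with the signal recognition particle, whose subunit gene Srp19 was at 10.9 to 13.0 CPM in IRE1PKO and 13.6 to 13.7 CPM in IRE1fl (-0.18, SE 0.12). Srprb, which encodes the membrane anchor of its receptor, had the highest fold change of this step at 0.27 (SE 0.17, adjusted p = 0.361). Its libraries gave 32.1, 24.2 and 20.9 CPM in IRE1PKO, against 23.0, 23.3 and 17.9 CPM in IRE1fl, so that 1 IRE1PKO library, 01, stood apart. Without it the log2 fold change of Srprb was 0.07, below the 0.12 of Ssr3. A second annotated gene on the same strand shares 29.0% of the exon bases of Srprb, so its counts are uncertain. The 3 genes of the Sec61 channel, through which new proteins thread, had log2 fold changes of -0.10 for Sec61a1, 0.02 for Sec61b and -0.17 for Sec61g. Ssr1, Ssr2 and Ssr3 of the translocon-associated protein complex had 0.01, -0.10 and 0.12, and none of these 6 passed. An opposite-strand gene shares 17.3% of the exon bases of Sec61a1, and strand was not stated for the counting.

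Spcs2, a subunit of the signal peptidase that trims the leader from arriving proteins, came nearest to a call among the entry genes. It gave 57.8, 45.2 and 48.5 CPM in the IRE1PKO livers, against 63.5, 62.4 and 61.0 CPM in the IRE1fl livers. All IRE1PKO libraries were lower, and the IRE1fl libraries lay close together. Its log2 fold change was -0.30 (SE 0.10, edgeR adjusted p = 0.0810), and it passed without IRE1PKO 01 (-0.41, adjusted p = 0.0356). Spcs2 also passed with no filter on low counts and with the replicate number fitted as a block. Spcs3 of the same enzyme was also lower in each IRE1PKO library (57.7 to 60.1 CPM, against 61.3 to 68.2 CPM in IRE1fl), at -0.14 and not passing. Serp1, a small protein that stabilises nascent membrane proteins under stress, had -0.07. For the oligosaccharyltransferase, which attaches N-glycans, the catalytic subunit gene Stt3a had 0.01 (95% interval -0.17 to 0.18) and Ostc 0.06. Of the 13 entry genes edgeR called 0, beside 5.68% of all genes called higher and 3.86% called lower. At an unadjusted p under 0.05, 0 were higher and 1 lower (0% and 7.69%, beside 13.5% and 11.5% of all genes). DESeq2 and limma-voom called none of the entry genes. The interval of 12 of the 13 lay within 1.5-fold.

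Among folding genes Dnajb9 (chromosome 12, 44205897 to 44210068) showed the clearest difference. It encodes ERdj4, a J-domain co-chaperone of BiP that also serves ER-associated degradation and is a classic XBP1 target. It gave 54.8, 45.5 and 49.99 CPM in the IRE1PKO livers, against 34.8, 35.9 and 37.4 CPM in the IRE1fl livers. The lowest IRE1PKO library was well above the highest IRE1fl library. Dnajb9 rose by a log2 value of 0.48 (SE 0.09, edgeR adjusted p = 0.00915), in 3 of 3 IRE1PKO libraries, and was called under all 16 alternatives, with adjusted p from 0.000645 to 0.0443. Xbp1 in the same livers had a log2 fold change below 0 that did not pass.

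Hspa13 (chromosome 16, 75755190 to 75767276), a small ER member of the Hsp70 family without a peptide-binding domain, was the other call. It gave 41.4, 35.8 and 36.2 CPM in the IRE1PKO livers, against 30.8, 30.95 and 24.9 CPM in the IRE1fl livers. The groups did not overlap, and IRE1PKO 01 was the highest and IRE1fl 03 the lowest. The rise of 0.39 (SE 0.11) passed narrowly (edgeR adjusted p = 0.0470) and was lost when any 1 of the 6 libraries was left out, with values from 0.29 to 0.44 and adjusted p from 0.0527 to 0.169.

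BiP itself, encoded by Hspa5 (chromosome 2, 34772090 to 34776529) and the main Hsp70 chaperone of the ER, showed no such shift. It gave 732, 502 and 612 CPM in the IRE1PKO livers, against 596, 596 and 598 CPM in the IRE1fl livers. The IRE1fl libraries were nearly identical, while the IRE1PKO libraries lay on both sides of them. Its log2 fold change was 0.04 (SE 0.13, 95% interval -0.24 to 0.33, adjusted p = 0.870), and it was -0.10 without IRE1PKO 01 and 0.17 without IRE1PKO 02. The nucleotide exchange factors of BiP had -0.07 (Hyou1) and -0.05 (Sil1). Sdf2l1, which works with Dnajb11 to keep clients soluble, had -0.27 (SE 0.16, adjusted p = 0.328).

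Dnajb11, encoding the co-chaperone ERdj3, moved opposite to Dnajb9 in each IRE1PKO library without passing. It gave 86.6, 69.3 and 77.1 CPM in the IRE1PKO livers, against 92.1, 98.8 and 96.8 CPM in the IRE1fl livers, a log2 fold change of -0.30 (SE 0.10, edgeR adjusted p = 0.0722). The third J-domain gene, Dnajc3, also known as p58IPK, had -0.18 (adjusted p = 0.328). Grp94, the ER Hsp90 encoded by Hsp90b1, had -0.22 (SE 0.11, adjusted p = 0.235). An opposite-strand gene overlaps 14.7% of its exon bases, and strand was not stated for the counting.

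The lectin chaperones of the calnexin cycle, which bind glycoproteins, differed in their values. Calr gave 588, 558 and 580.2 CPM in the IRE1PKO livers, against 657, 704 and 648 CPM in the IRE1fl livers. All IRE1PKO libraries were lower, and the log2 fold change was -0.22 (SE 0.09) without a call (edgeR adjusted p = 0.173). Canx gave 319 to 329.9 CPM in IRE1PKO and 309 to 326 CPM in IRE1fl (0.04, SE 0.09). A difference between these 2 genes was not tested.

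Of the disulfide isomerase family, which forms and reshuffles disulfide bonds, P4hb was the most abundant, with 1469.8, 1439 and 1472 CPM in IRE1PKO, against 1249.6, 1317 and 1312 CPM in IRE1fl. Its IRE1PKO libraries were all higher, at 0.18 (SE 0.10, adjusted p = 0.288), and P4hb is also a subunit of the collagen prolyl hydroxylase. Pdia6 was lower in each IRE1PKO library, at -0.14, and Pdia3, the partner of the lectin chaperones, had -0.20. Pdia4, Txndc5 and Txndc11 had -0.02, -0.01 and -0.05, and none of the 6 passed.

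Among the remaining folding factors Creld2, an ER stress-inducible factor, had the lowest fold change of the step. It gave 44.2, 23.0 and 37.3 CPM in the IRE1PKO livers, against 43.9, 54.4 and 45.0 CPM in the IRE1fl livers. IRE1PKO 02 was the lowest of the 6, and IRE1PKO 01 lay within the IRE1fl range. With SE 0.24 and an edgeR adjusted p of 0.298, the log2 fold change of -0.46 was not a call, and it was -0.23 without IRE1PKO 02. Manf, a secreted ER stress-response factor, ran from 54.8 to 91.9 CPM in IRE1PKO and from 67.99 to 76.1 CPM in IRE1fl, at -0.01 (SE 0.17). Cnpy2, a saposin-like ER protein, had -0.15.

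ER-associated degradation had the lowest median of the 3 large steps. In edgeR 0 of its 8 genes passed, beside 5.68% of all genes called higher and 3.86% called lower. At an unadjusted p under 0.05, 1 was higher and 3 lower (12.5% and 37.5%, beside 13.5% and 11.5% of all genes). DESeq2 and limma-voom called Derl3. Edem1, a mannosidase-like factor that marks misfolded glycoproteins, gave 186, 174 and 179.8 CPM in the IRE1PKO livers, against 214, 208 and 212 CPM in the IRE1fl livers. The groups did not overlap, at -0.23 (SE 0.08, edgeR adjusted p = 0.108). Edem2, which makes the first mannose cut, was also lower in each IRE1PKO library (-0.19, adjusted p = 0.215). Herpud1, a scaffold of the Hrd1 ligase, gave 427, 465 and 338 CPM in IRE1PKO, against 492, 563 and 506 CPM in IRE1fl. Its log2 fold change was -0.34 (SE 0.12, edgeR adjusted p = 0.111), and IRE1PKO 03 was the lowest.

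The Hrd1 ligase and its adaptor stood on different sides of 0. Sel1l, the adaptor, gave 203, 175 and 183 CPM in the IRE1PKO livers, against 157, 165 and 165 CPM in the IRE1fl livers, all IRE1PKO libraries being higher (0.20, SE 0.09, edgeR adjusted p = 0.192). Syvn1, which encodes Hrd1, gave 92.0, 65.6 and 64.2 CPM in IRE1PKO, against 87.4, 87.0 and 73.8 CPM in IRE1fl (-0.16, SE 0.14), with IRE1PKO 01 above and the other IRE1PKO libraries below the IRE1fl range. Derl1 and Derl2, derlins of the export channel, had 0.06 and -0.06.

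Derl3 (chromosome 10, 75893398 to 75895941), the derlin most abundant in professional secretory cells such as plasma cells and pancreatic acinar cells, had the lowest fold change of all members. It gave 3.34, 2.39 and 7.46 CPM in the IRE1PKO livers, against 9.86, 12.3 and 9.84 CPM in the IRE1fl livers. IRE1PKO 03 lay nearer to the IRE1fl libraries than the other IRE1PKO libraries did, but the groups did not overlap. The log2 fold change of -1.27 (SE 0.40) did not pass in edgeR (adjusted p = 0.109), and it was -1.89 (adjusted p = 0.000984) without IRE1PKO 03. DESeq2 and limma-voom called it (adjusted p of 0.00110 and 0.0249). Summed plasma and B cell markers, of which 6 of 8 listed were in the table under these symbols, stood at 5.13 to 6.65 CPM in IRE1PKO and 7.12 to 12.3 CPM in IRE1fl. Of these only Jchain was called, with 1.64, 2.36 and 2.81 CPM in IRE1PKO, against 6.29, 3.72 and 9.03 CPM in IRE1fl (edgeR adjusted p = 0.0221). The B cell genes Cd79a and Cd79b had log2 fold changes above 0 (0.76 and 0.22) that did not pass. Mzb1 and Ms4a1 of the same list were below 0 (-0.55 and -0.11) and did not pass either. The lower sum was mostly that of Jchain. Summed acinar markers were at 7.85 to 11.2 CPM in IRE1PKO and 29.1 to 43.3 CPM in IRE1fl, of which Cela1, the 1 gene of the list tested and called lower, made nearly all, while Ctrb1, Prss2, Cpb1 and Pnlip were at 0 counts in every library. The part of such cells in the Derl3 values was not tested.

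Of the traffic genes, Sec24d, a cargo-binding subunit of the COPII coat that leaves the ER, had 0.03 (95% interval -0.18 to 0.23). Arfgap3, a GTPase-activating protein that acts on Arf at the Golgi, gave 12.1, 9.82 and 8.70 CPM in the IRE1PKO livers, against 6.81, 9.30 and 8.14 CPM in the IRE1fl livers (0.34, SE 0.17, adjusted p = 0.244), with overlap. Kdelr3, a receptor that returns escaped chaperones to the ER, did not pass the filter on low counts. It gave 0.231, 0.271 and 0.636 CPM in IRE1PKO, against 0.138, 0.170 and 0.0539 CPM in IRE1fl, from 2 to 26 counts per library, and was not tested.

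**Figure D3:**
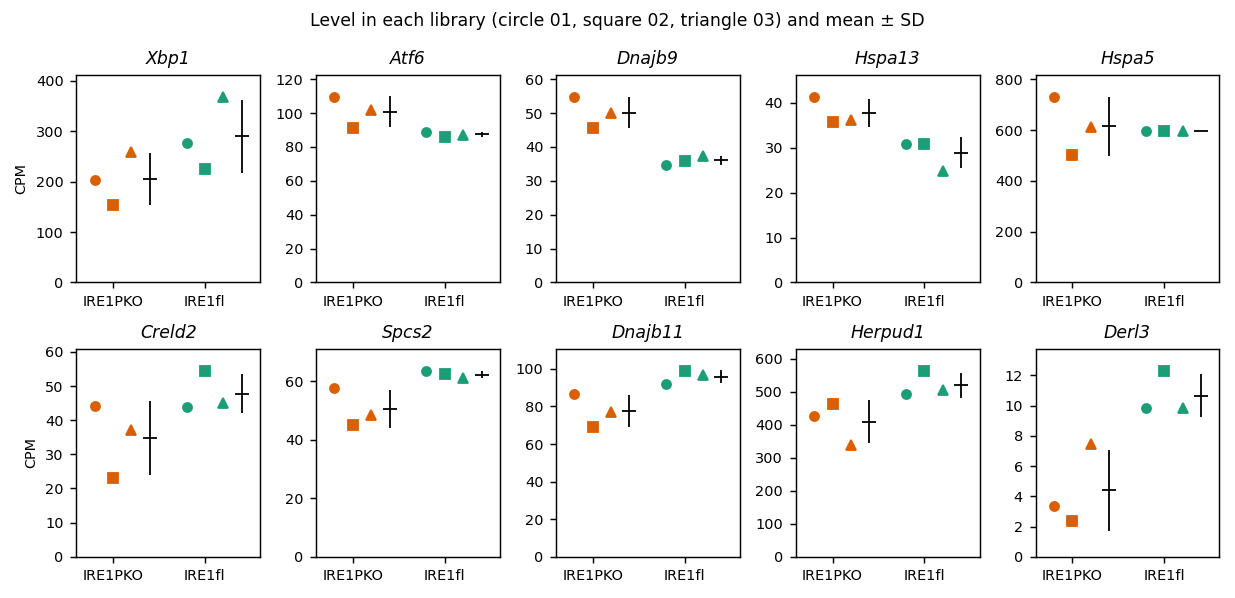
Level in CPM (y axis, from 0) of 10 members in each library, IRE1PKO on the left and IRE1fl on the right of each panel. Circles, squares and triangles are libraries 01, 02 and 03, and the bar is the mean ± SD of 3 libraries. Dnajb9 and Hspa13 are higher in each IRE1PKO library, Hspa5 spreads from 502 to 732 CPM in IRE1PKO around an IRE1fl level of 596 to 598 CPM, and Derl3 is lower in each IRE1PKO library.

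Levels can be compared between genes only per length, here as CPM per kilobase of annotated exon, which understates genes with long alternative untranslated ends. On this scale P4hb had rank 1 in both groups, with 510.4 ± 6.48 in IRE1PKO and 452 ± 13.1 in IRE1fl (SD, n = 3 each). Calr had rank 2 in both, with 263 ± 7.19 in IRE1PKO and 307 ± 13.8 in IRE1fl. Herpud1 (210.1 ± 33.3 in IRE1PKO and 267 ± 19.2 in IRE1fl) and Hsp90b1 (222 ± 17.8 in IRE1PKO and 258 ± 22.3 in IRE1fl) had ranks 3 and 4 in either order, a difference within their spread. Hspa5 had rank 5 in both, at 164 in IRE1PKO and 159 in IRE1fl. Xbp1 had rank 9 in IRE1PKO, at 85.9, and rank 8 in IRE1fl, at 121, above Atf6 at 13.9 in IRE1PKO and 12.1 in IRE1fl. Derl3 was rank 46 in IRE1PKO and rank 40 in IRE1fl of the 47, and Dnajb9 rank 31 in IRE1PKO and rank 37 in IRE1fl.

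Followed library by library, many members shared the library in which they were highest or lowest. IRE1PKO 01 had the highest level of that group for 32 of 46 members (69.6%), against 34.0% of all tested genes, and IRE1PKO 02 had the lowest for 30 (65.2%, against 30.5%). The pattern was sharpest in folding, where IRE1PKO 02 was lowest of its group for 17 of 20 genes and IRE1PKO 01 for none. In degradation, IRE1PKO 02 and IRE1PKO 03 were each lowest for 4 of 8 genes and IRE1PKO 01 highest for 6. Hspa5, Hyou1, Manf and Creld2 all had their highest value of the group in IRE1PKO 01 and their lowest in IRE1PKO 02. The IRE1fl libraries also had an order, with IRE1fl 02 highest of its group for 26 of 46 members (56.5%, against 31.3% of all genes) and 13 of 20 folding genes, and IRE1fl 01 lowest for 21 of 46 (45.7%, against 33.7%). Members of a library share its cells and its depth, so these counts describe 3 libraries and were not tested.

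Centred on the mean of the IRE1fl libraries, the median log2 level of folding genes was 0.04 in IRE1PKO 01, -0.26 in IRE1PKO 02 and -0.07 in IRE1PKO 03, against -0.05, 0.05 and -0.0021 in IRE1fl 01, 02 and 03. For entry genes it was 0.03, -0.16 and -0.12 in IRE1PKO 01, 02 and 03, against -0.03, 0.04 and -0.0067 in the IRE1fl libraries. For degradation genes it was -0.01, -0.17 and -0.24 in IRE1PKO 01, 02 and 03, against -0.05, 0.05 and -0.01 in the IRE1fl libraries. Over all tested genes the medians lay between -0.0020 and 0.0127. The medians of IRE1PKO 01 were thus within the IRE1fl range in all 3 steps, and those of IRE1PKO 02 and IRE1PKO 03 were below it in all 3. Without IRE1PKO 02, the median fold change of folding genes was -0.00014, of entry genes 0.01 and of degradation genes -0.14. Without IRE1PKO 01 the medians were -0.17 for folding, -0.08 for entry and -0.23 for degradation.

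**Figure D4:**
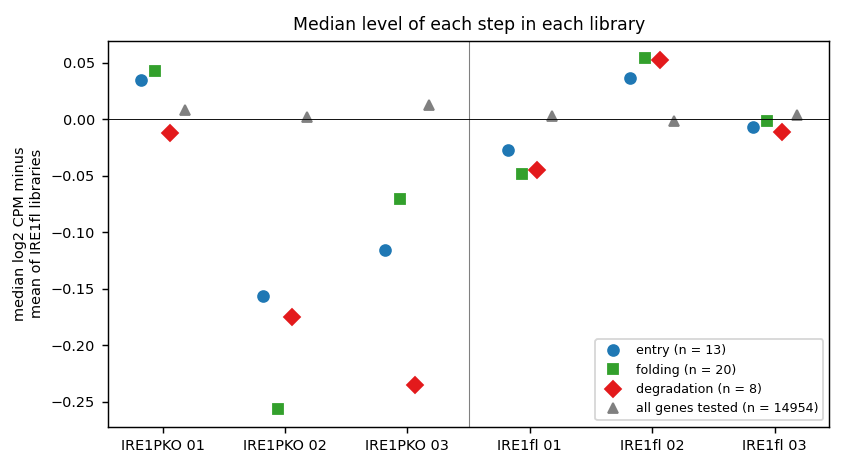
Median log2 CPM of the entry, folding and degradation genes and of all tested genes in each library (x axis), centred on the mean of the IRE1fl libraries (y axis). IRE1PKO 02 has the lowest folding median, -0.26, IRE1PKO 03 the lowest degradation median, -0.24, and all genes stay near 0.

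The IRE1PKO libraries were also further apart than the IRE1fl libraries in these genes. The range across 3 libraries, on the log2 scale, had a median of 0.30 in IRE1PKO and 0.14 in IRE1fl over the 46 members, whereas over all tested genes it was 0.33 in IRE1PKO and 0.32 in IRE1fl. The range was wider in IRE1PKO for 37 of 46 members (80.4%), against 50.8% of all genes. Members of a library share its cells and its depth, so this count describes the spread of 3 libraries per group. The difference in spread was not tested. The widest ranges were those of Derl3 in IRE1PKO (1.62) and of Xbp1 in IRE1fl (0.71). By step the median range was 0.34 in IRE1PKO and 0.12 in IRE1fl for entry, 0.28 in IRE1PKO and 0.14 in IRE1fl for folding, and 0.28 in IRE1PKO and 0.17 in IRE1fl for degradation. With library totals as the only scaling the range was wider in IRE1PKO for 36 members.

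**Figure D5:**
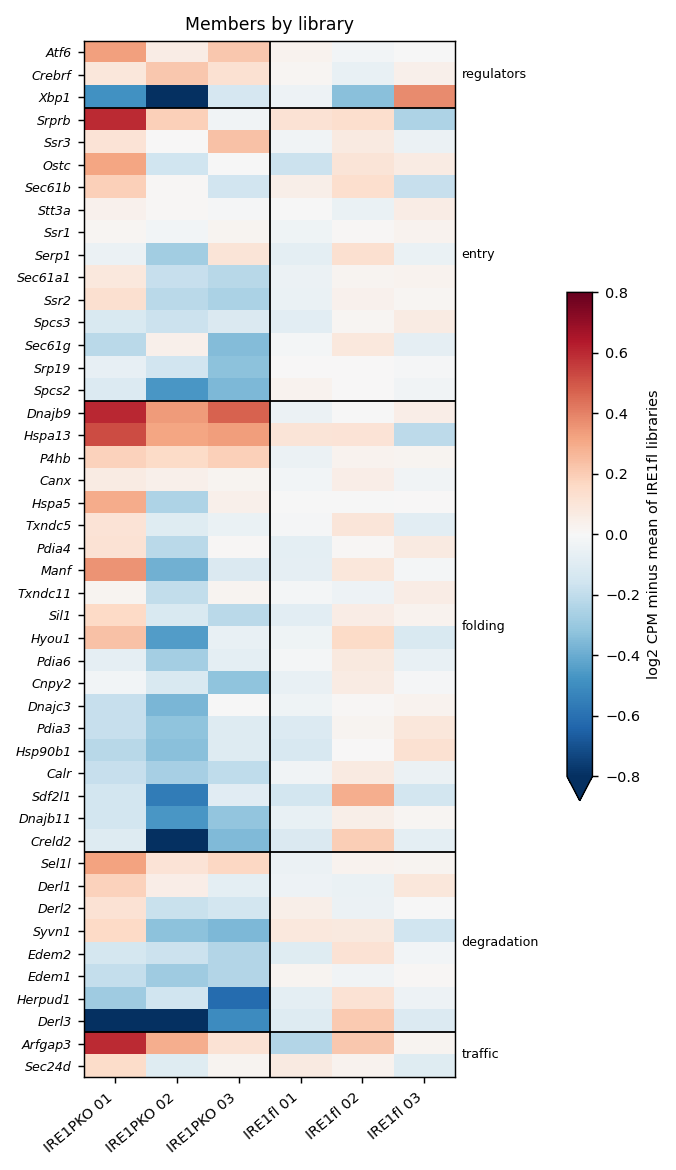
Log2 CPM of each tested member (rows, by step) in each library (columns, IRE1PKO on the left), minus the mean of the IRE1fl libraries. Red is higher and blue lower, and colours end at 0.8 in either direction. Within IRE1PKO the 01 column holds the reddest cells of most rows and the 02 column the bluest of 17 of 20 folding rows.

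The 9 members with an exact ERSE had a median log2 fold change of -0.18, with 2 above and 7 below 0, from -1.27 for Derl3 to 0.04 for Hspa5. The 26 tested members whose window held no ERSE had a median of -0.04, with 11 above and 15 below 0, from -0.50 for Xbp1 to 0.48 for Dnajb9. They include Dnajb11 (-0.30) and Herpud1 (-0.34), the 2 members with an ERSE-II. The difference between these sets was not tested.

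Other genes of the same pathway, from a separate list of 117 of which 116 were in the table, had no gene called higher in edgeR. Of 115 tested, 0 were called higher and 4 lower, Ern1 among them, or 3.48% lower beside 3.86% of all genes, a share near the background. At an unadjusted p under 0.05, 8 were higher and 14 lower (6.96% and 12.2%, beside 13.5% and 11.5% of all genes). Os9, a lectin that hands misfolded glycoproteins to the Hrd1 complex, gave 209.6, 229.8 and 203 CPM in the IRE1PKO livers, against 284, 285 and 299 CPM in the IRE1fl livers, and fell by 0.43 on the log2 scale (SE 0.09, edgeR adjusted p = 0.0137). Ppib, the ER cyclophilin B, gave 52.8, 54.8 and 47.2 CPM in IRE1PKO, against 62.3, 68.3 and 79.4 CPM in IRE1fl, and fell by 0.44 (SE 0.11, edgeR adjusted p = 0.0240). Ganab, the catalytic subunit of glucosidase II in the calnexin cycle, gave 166, 174 and 175 CPM in IRE1PKO, against 218, 207 and 232 CPM in IRE1fl, and fell by 0.35 (SE 0.09, edgeR adjusted p = 0.0294). In each of the 3 every IRE1PKO library was below every IRE1fl library. The Os9 call was lost without IRE1PKO 01 or IRE1fl 03 (adjusted p of 0.0616 and 0.0502), while Ppib lost its call in 5 of the 6 omissions of a library (adjusted p up to 0.0989) and Ganab also in 5 (up to 0.106). Ganab lost it as well when libraries were scaled by their totals alone (-0.28, adjusted p = 0.0723). By step the medians of the other genes were -0.07 for 26 entry genes, -0.10 for 28 folding genes, -0.08 for 24 degradation genes and 0.02 for 27 traffic genes.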

How the data were processed

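Poly(A) RNA in 6 mouse liver libraries (3 IRE1PKO, 3 IRE1fl) was measured as raw counts per gene in 1 table that the authors deposited, with whole numbers and gene symbols only. The build mm10 is named per the submitters' processing notes, and aligner, counter and strand setting were not given in the sources used here. Among counts of 1 to 8, even values were 2.58 to 3.19 times as frequent as odd ones, so both mates of a pair may have been counted, and counting error may then be larger than the counts imply. Date-like symbols (27 genes, 0.178% of counts) were kept.

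Groups follow the genotype labels. Counts were scaled by TMM (factors 0.945 to 1.05), filtered with filterByExpr, and tested two-sided with edgeR 4.0.16 (glmQLFit with robust fitting, glmQLFTest) in R 4.3.3 on all 6 libraries, with Benjamini-Hochberg adjustment over 14954 genes and a threshold of 0.05. SE and 95% intervals come from the same fit. With 3 against 3 libraries an exact permutation of 1 value cannot give p under 0.10, so none was run. No 2 libraries agreed within sampling noise. CPM use the TMM-scaled total, and values are mean ± SD. Exon lengths and exon overlaps are from GENCODE vM21 (GRCm38). Gene coordinates are from RefSeq, and promoter windows from RefSeq (GRCm38.p6). The script was tested on simulated data. DESeq2 1.42.0 and limma-voom (limma 3.58.1) were alternatives, beside other scalings, filters and thresholds, a replicate block, halved counts and omission of each library.

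Named genes are the called members, Xbp1, Atf6, Hspa5 and Ern1, the extremes of each step, members with an unadjusted p under 0.05, and called genes of the second pathway list; the other members were given by value because the list is short. Members, lists and tests were chosen with earlier results of these data known. Deviations of same-numbered libraries correlated only weakly (0.0712, -0.0216 and 0.101), and other pairings ran from -0.107 to 0.0346. No label says that a number marks a pair, so the main test was unpaired.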

Additional observations from a re-analysis of the deposited data

How the results depend on the processing

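Of the single-gene results over all alternatives, 760 stayed on their side of the threshold, 12 passed only under the alternative, 28 lost a call, and none changed direction after a call. For members called higher (2), limma-voom and fitting without the robust option gave 1. For members called lower (0), an omitted filter on low counts gave 3 (Spcs2, Dnajb11 and Herpud1), DESeq2 gave 1, limma-voom gave 1, a threshold of 0.1 gave 2, and the replicate block gave 3 (Spcs2, Herpud1 and Xbp1, at -0.50 and an adjusted p of 0.00414). The threshold of 0.1 gave 2291 called genes in all. DESeq2 called 1182 higher and 890 lower. With library totals as the only scaling, 1148 genes were called higher and 415 lower (73.4% higher), against 849 and 577 (59.5% higher), and the regulator median was 0.21. Without the low-count filter the traffic median was 0.34, because Kdelr3 enters. When Dnajb9 was counted with degradation, the folding median was -0.07 and the degradation median -0.16.

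Omitting each library in turn gave 653 to 1484 called genes, lowest without IRE1PKO 01 (653), and also 815 without IRE1PKO 02, 896 without IRE1fl 02 and 789 without IRE1fl 03. It gave 1 member called higher each time and 0 to 1 called lower. The medians ranged from -0.15 to 0.0011 for all steps, 0.10 to 0.16 for regulators, -0.11 to 0.011 for entry, -0.17 to -0.00014 for folding, -0.23 to -0.11 for degradation and 0.20 to 0.45 for traffic. The cause of these shifts was not tested. Samples share only a number: same-numbered libraries correlated at 0.0712, -0.0216 and 0.101, and the replicate block called 1051 genes higher and 814 lower (1865 in all). Depth limits Kdelr3. With counts halved, Derl3 had -1.27 (adjusted p = 0.0904), against an adjusted p of 0.109 at full depth.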
